A study of Mus musculus with 8 samples.

Results

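The genes described here encode the histone methyltransferase DOT1L and the proteins that bind it or share partners with it. The list holds 9 genes, Dot1l, Mllt10, Mllt6, Mllt1, Mllt3, Aff1, Aff4, Kmt2a and Men1, matched by gene name among 54532 genes of the deposited count table. Each name matched 1 gene, and all 9 passed the filter on low counts that 15470 genes passed. The cells were wild-type fibroblasts of mouse embryos, primary connective tissue cells, whose RNA was sequenced on day 4 in one of 4 media, for a total of 8 libraries at 2 for each medium. CFAE+8+MSC medium held CHIR99021, a GSK-3 inhibitor, Forskolin, an activator of adenylyl cyclase, AM580, a retinoic acid receptor alpha agonist, EPZ04777 (the spelling of the labels), a DOT1L inhibitor, A-83-01, an inhibitor of TGF-beta type I receptors, and MSC2530818, an inhibitor of the kinases CDK8 and CDK19. CFAE+6 medium held the same CHIR99021, Forskolin, AM580 and EPZ04777 with E-616452, another TGF-beta type I receptor inhibitor, and neither A-83-01 nor MSC2530818. CFAE+8 medium held those 4 compounds with A-83-01, and MEF medium was the control. The labels give no doses and do not state whether each library had a culture of its own. The p-values therefore cover only the variation among these samples, and this may be technical. Every compound medium contains EPZ04777 together with at least 4 other compounds, so the part of the DOT1L inhibitor in any difference from MEF medium cannot be told apart from that of the other compounds.

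DOT1L methylates a lysine on the outer face of the nucleosome core, in the body of transcribed genes, and is the main enzyme known to do so in mammals. AF10 and AF17, encoded by Mllt10 and Mllt6, bind DOT1L, and AF10 favours the higher methylation states. AF9 and ENL, encoded by Mllt3 and Mllt1, carry a YEATS domain that reads acylated histone lysines, and through one shared surface they bind either DOT1L or the scaffold proteins AFF1 and AFF4. Those scaffolds hold the super elongation complex, which carries the kinase P-TEFb to paused RNA polymerase II. KMT2A, a histone H3 methyltransferase of promoters, works with menin, the product of Men1. Most of these genes are best known from leukaemias in which KMT2A is fused to AFF1, AF9, ENL or AF10. In fibroblasts, DOT1L inhibition is known to ease reprogramming to pluripotency. The transcripts below are those of the complex members, and neither DOT1L activity nor histone methylation was measured.

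The 3 promoter windows below are shown because Mllt3 had the widest range of levels among the 9 genes, Mllt1 is its paralogue with a much narrower range, and Dot1l encodes the enzyme. They are RefSeq windows on GRCm38.p6 of 300 bases, from 250 bases before to 50 bases after a transcript start, at chr4:88033358-88033657 on the minus strand for Mllt3, chr17:56935339-56935638 on the minus strand for Mllt1 and chr10:80754953-80755252 on the plus strand for Dot1l. Capitals mark matches, on either strand, to a motif searched here. The GC box motif was spelled GGGCGG. The cAMP response element core, found in Mllt1 among these windows, was spelled TGACG. The CCAAT box was searched by the letters of its name.
Mllt3: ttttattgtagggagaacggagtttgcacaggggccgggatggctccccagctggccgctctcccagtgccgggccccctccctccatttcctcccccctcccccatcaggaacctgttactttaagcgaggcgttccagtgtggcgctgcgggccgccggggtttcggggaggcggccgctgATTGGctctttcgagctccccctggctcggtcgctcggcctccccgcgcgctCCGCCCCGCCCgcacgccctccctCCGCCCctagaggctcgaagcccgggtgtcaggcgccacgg
Mllt1: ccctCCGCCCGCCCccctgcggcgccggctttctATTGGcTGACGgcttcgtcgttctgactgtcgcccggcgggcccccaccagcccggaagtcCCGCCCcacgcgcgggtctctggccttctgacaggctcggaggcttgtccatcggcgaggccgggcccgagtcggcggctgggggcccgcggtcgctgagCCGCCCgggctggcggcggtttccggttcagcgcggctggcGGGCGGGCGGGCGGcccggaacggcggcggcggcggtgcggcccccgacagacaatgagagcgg
Dot1l: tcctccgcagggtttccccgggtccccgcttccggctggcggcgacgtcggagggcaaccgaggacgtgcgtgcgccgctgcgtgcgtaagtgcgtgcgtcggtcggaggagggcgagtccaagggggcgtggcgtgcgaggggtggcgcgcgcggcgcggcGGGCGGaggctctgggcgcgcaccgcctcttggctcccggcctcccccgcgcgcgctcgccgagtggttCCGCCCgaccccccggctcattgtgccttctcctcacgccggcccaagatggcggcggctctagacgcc

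The Mllt3 window held 3 GC boxes and 1 CCAAT box, and the Mllt1 window held 7 GC boxes, 1 CCAAT box and 1 cAMP response core. In Dot1l 2 GC boxes were found. Neighbouring GC boxes overlap in the runs of Mllt1 and Mllt3. All 9 genes had a window in the RefSeq table. Mllt3 and Aff1 had 2 windows there, and Mllt10 and Men1 had 3. For each gene only the window nearest the start of the deposited gene model was used, so other starts of these genes are not covered. GC boxes were present in 7 of the 9 windows, against 35.7% of all 32851 windows in the table, and a CCAAT box in 4 of 9, against 37.4%. The cAMP response core was in the windows of 3 genes, Mllt1, Aff1 and Aff4, against 20.8% of all windows. A TCF/LEF match (CTTTGA or CTTTGT), present in 31.2% of all windows, a nuclear receptor match (AGGTCA), in 16.3%, and the full cAMP response element (TGACGTCA), in 1.79%, did not occur in the 9 windows. GC content ran from 42.3% in Mllt10 to 79.3% in Mllt6, with 8 of 9 windows above the median of 52.7% over all windows. The Aff1 window lies 61788 bases from the start of the deposited gene model and therefore marks another transcript start. These matches describe letters in short windows only.

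Library totals ran from 10958430 to 11913143 counts, and replicate libraries differed by more than counting noise in every medium. Fibroblast markers were detected in all libraries, 10 of 10 listed genes, with a summed level of 11230 to 11580 CPM, library-scaled counts, in CFAE+8+MSC, 10780 to 11150 CPM in CFAE+6, 11520 to 11580 CPM in CFAE+8 and 27330 to 28090 CPM in MEF medium. Collagen genes carry most of that difference, with Col1a1 at 3506 to 4324 CPM on average in the compound media and 14730 CPM in MEF medium, while Twist1, Thy1, Pdgfra and Lum of the same list averaged higher in each compound medium, Twist1 at 978.4 to 1088 CPM against 102.9 CPM in MEF medium. Summed macrophage markers were at 19.83 to 38.75 CPM in the compound media and 187.7 to 189.1 CPM in MEF medium, with Fcgr1 at 0 in every compound library. Lyz2 carried most of that difference, with averages of 3.614 to 14.81 CPM in the compound media and 123.9 CPM in MEF medium. Cd68 averaged 10.9 CPM in CFAE+8+MSC, 5.658 CPM in CFAE+6, 12 CPM in CFAE+8 and 13.24 CPM in MEF medium. Mesothelial markers summed to at most 8.834 CPM in the compound media, with Lrrn4 at 0, and to 132.5 to 132.9 CPM in MEF medium. Neuronal markers summed to 60.56 to 77.94 CPM in the compound media and 53.6 to 56.06 CPM in MEF medium, mostly Tubb3, while Map2 averaged 2.032 to 3.445 CPM in the compound media and 16.96 CPM in MEF medium, and pluripotency and red blood cell markers to at most 0.5196 CPM in any library. In bulk RNA, fewer cells of a type and less RNA per cell cannot be told apart, and the part of these shifts in the results below was not tested.

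Against MEF medium, the compound media carried more mRNA for the enzyme, for both YEATS readers, for AF17 and for menin, while the other members differed by little or in 1 or 2 media. Called means a Benjamini-Hochberg adjusted p under 0.05 in edgeR's quasi-likelihood test over all 15470 genes. In CFAE+8+MSC against MEF medium, 5 of 9 genes were higher and 4 were not called, where 64.1% of all genes were called, 31.9% higher and 32.2% lower. In CFAE+6 against MEF medium, 5 were higher and 4 lower, where 63.1% of all genes were called, 31.6% higher and 31.5% lower. In CFAE+8 against MEF medium, 6 were higher, 1 was lower and 2 were not called, where 62% of all genes were called, 30.8% higher and 31.3% lower. With 9 genes, these counts are a description. The median absolute log2 fold change of the 9 genes, 0.43, 0.361 and 0.349 in the CFAE+8+MSC, CFAE+6 and CFAE+8 contrasts, lay below that of all tested genes, 0.509, 0.499 and 0.495. These 3 contrasts share the MEF libraries, so their values are given side by side and not as separate evidence.

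**Figure D1:**
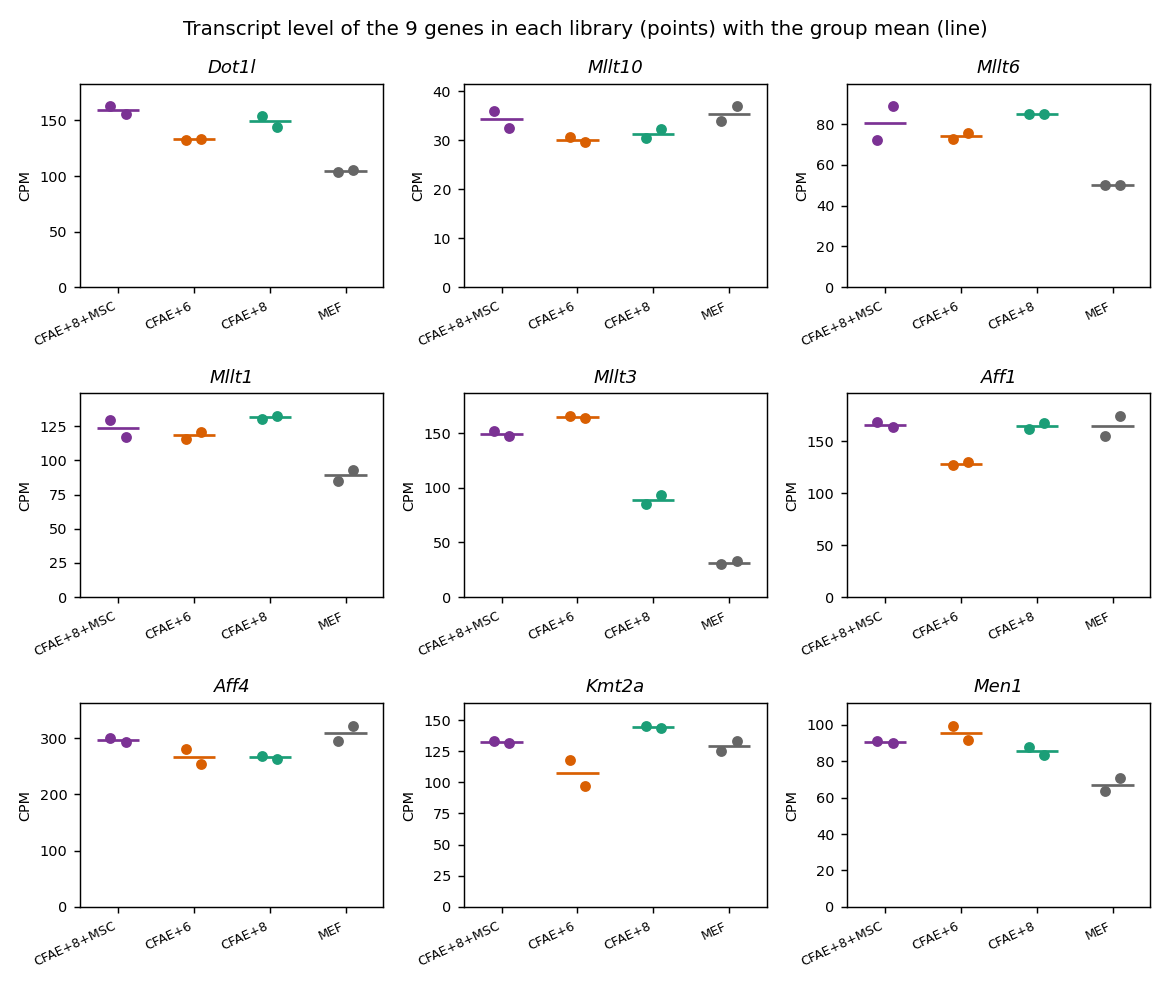
Level of each of the 9 genes in CPM (vertical axes, each from 0) in the 4 media (horizontal axes). Points are single libraries and short lines the mean of 2. Mllt3 lies between 147.1 and 165.5 CPM in CFAE+8+MSC and CFAE+6, between 84.85 and 92.96 CPM in CFAE+8 and near 30 CPM in MEF medium, and no other member spreads as widely.

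Dot1l, the methyltransferase gene itself (ENSMUSG00000061589, mm10 chr10:80755206-80795461, plus strand), was higher in every compound medium. Its level was 162.8 and 156 CPM in CFAE+8+MSC, 132.3 and 133.5 CPM in CFAE+6, 154.2 and 144.4 CPM in CFAE+8, and 103.9 and 105.2 CPM in MEF medium. All 6 compound libraries lay above both MEF libraries, and CFAE+6 was the lowest of the compound media. Relative to MEF medium the fold was 1.53 in CFAE+8+MSC (log2 0.61 ± 0.058 SE, adjusted p = 2.36e-10), 1.27 in CFAE+6 (log2 0.35 ± 0.059, adjusted p = 7.94e-06) and 1.43 in CFAE+8 (log2 0.51 ± 0.058, adjusted p = 7.66e-09) by edgeR. The transcript of the drug's target was thus measured at a raised level in all media that contain the inhibitor, and no medium in the study holds the inhibitor alone.

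Of the DOT1L cofactors, Mllt6 rose and Mllt10 did not. Mllt6, encoding AF17 (ENSMUSG00000038437, mm10 chr11:97663414-97685463, plus strand), had 72.14 and 88.72 CPM in CFAE+8+MSC, 72.46 and 75.49 CPM in CFAE+6, 84.85 and 84.81 CPM in CFAE+8, and 50.08 and 50.2 CPM in MEF medium. Every compound library was above the MEF libraries, while the CFAE+8+MSC replicates lay farther apart than those of any other medium and straddled the rest. The fold against MEF medium was 1.6 in CFAE+8+MSC, 1.48 in CFAE+6 and 1.69 in CFAE+8 (edgeR adjusted p 2.22e-08, 7.71e-07 and 2.32e-09). Mllt10, encoding AF10 (ENSMUSG00000026743, mm10 chr2:18055237-18212388, plus strand), had 36.03 and 32.56 CPM in CFAE+8+MSC, 30.59 and 29.53 CPM in CFAE+6, 30.47 and 32.23 CPM in CFAE+8, and 33.83 and 36.91 CPM in MEF medium. Its libraries overlapped between CFAE+8+MSC and MEF medium, and those of the other compound media lay just under MEF medium. The fold was 0.97 in CFAE+8+MSC (95% interval 0.846 to 1.11) and 0.886 in CFAE+8 (0.772 to 1.02), neither called. In CFAE+6 the fold of 0.849 was called (edgeR adjusted p = 0.0367), but 8 of 12 alternative settings ended that call, with adjusted p between 0.0347 and 0.492. Mllt10 is also the member whose counts are least certain, since 12.7% of its exon length overlaps the antisense gene Dnajc1, no strand is marked by the library kit, and how the counting treated such reads is not stated. Per kilobase of gene model, Mllt10 stood at 0.546 ± 0.118 of Mllt6 in CFAE+8+MSC, 0.513 ± 0.0276 in CFAE+6, 0.466 ± 0.0186 in CFAE+8 and 0.89 ± 0.0534 in MEF medium (SD, n = 2 each), with every compound library below both MEF libraries.

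The YEATS readers both rose, by unlike amounts. Mllt3, encoding AF9 (ENSMUSG00000028496, mm10 chr4:87769925-88033364, minus strand), had 151.5 and 147.1 CPM in CFAE+8+MSC, 165.5 and 164.1 CPM in CFAE+6, 84.85 and 92.96 CPM in CFAE+8, and 29.94 and 32.52 CPM in MEF medium. No medium overlapped another in this gene, in the order CFAE+6, CFAE+8+MSC, CFAE+8, MEF from high to low. The difference between CFAE+8+MSC and CFAE+6 was not called (edgeR adjusted p = 0.128). The fold against MEF medium was 4.78 in CFAE+8+MSC (log2 2.26 ± 0.071 SE), 5.28 in CFAE+6 (log2 2.40 ± 0.071) and 2.85 in CFAE+8 (log2 1.51 ± 0.074), with edgeR adjusted p of 1.16e-21, 2.09e-22 and 6.48e-17. In all, 5.84%, 5.38% and 7.91% of the tested genes had a larger rise in those contrasts, so the rise of Mllt3 was large but not extreme. Mllt1, encoding ENL (ENSMUSG00000024212, mm10 chr17:56892611-56935415, minus strand), had 129.5 and 117.3 CPM in CFAE+8+MSC, 115.4 and 121 CPM in CFAE+6, 130.4 and 132.4 CPM in CFAE+8, and 84.67 and 93.25 CPM in MEF medium. Its compound libraries all lay above the MEF libraries, with CFAE+8 highest, the reverse of the place CFAE+8 took among compound media for Mllt3. The fold of Mllt1 was 1.39 in CFAE+8+MSC, 1.33 in CFAE+6 and 1.48 in CFAE+8 (edgeR adjusted p 2.96e-07, 3.21e-06 and 1.08e-08).

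Beside Mllt3, summed endothelial markers were at 52.09 to 54.3 CPM in CFAE+8+MSC, 54.95 to 60.82 CPM in CFAE+6, 25.02 to 27.14 CPM in CFAE+8 and 18.82 to 19.14 CPM in MEF medium, with Emcn at 0 in CFAE+8+MSC and CFAE+6. Summed epithelial markers were at 40.7 to 44.26 CPM in CFAE+8+MSC, 36.29 to 36.67 CPM in CFAE+6, 10.77 to 10.84 CPM in CFAE+8 and 18.15 to 21.16 CPM in MEF medium. Kdr made up most of the endothelial sum, at 44.57 ± 1.51 CPM in CFAE+8+MSC, 50.33 ± 4 CPM in CFAE+6, 20.59 ± 1.06 CPM in CFAE+8 and 13.94 ± 0.627 CPM in MEF medium (SD, n = 2 each), while Tek averaged lower in each compound medium than in MEF medium. Both sums were highest in CFAE+8+MSC and CFAE+6, as Mllt3 was, but the epithelial sum was lower in CFAE+8 than in MEF medium, where Mllt3 was higher in CFAE+8. Their part in the result was not tested.

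**Figure D2:**
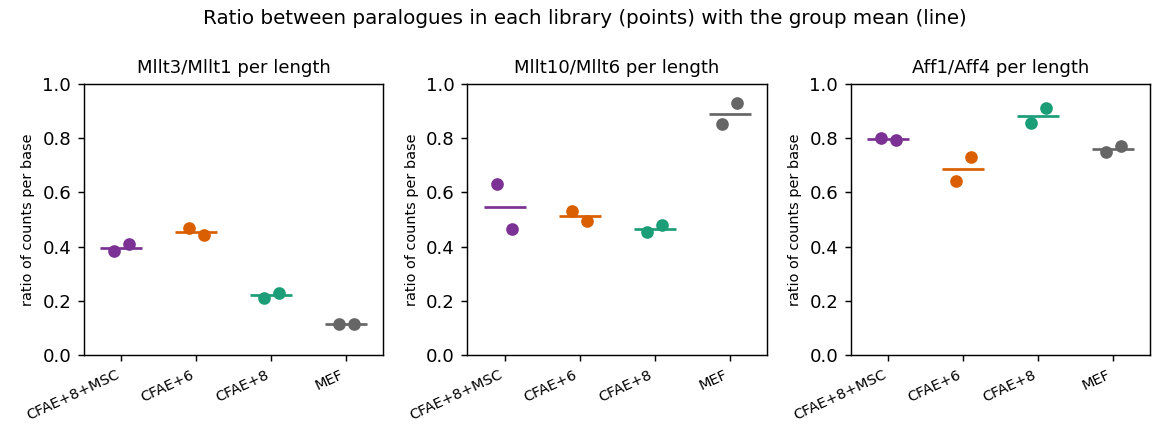
Ratios of CPM per kilobase between related members (vertical axes, from 0) in the 4 media, with 1 point per library and a line at the mean of 2. The ratio of Mllt3 to Mllt1 averages 0.396 in CFAE+8+MSC, 0.455 in CFAE+6, 0.221 in CFAE+8 and 0.115 in MEF medium.

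Per kilobase, Mllt1 remained the more abundant YEATS reader in all libraries. The ratio of Mllt3 to Mllt1 was 0.396 ± 0.0193 in CFAE+8+MSC, 0.455 ± 0.0182 in CFAE+6, 0.221 ± 0.0119 in CFAE+8 and 0.115 ± 0.00111 in MEF medium (SD, n = 2 each). As a share of the summed CPM per kilobase of the 9 genes, Mllt3 made up 8.16% and 8.14% in CFAE+8+MSC, 9.61% and 9.77% in CFAE+6, 4.85% and 5.34% in CFAE+8, and 2.21% and 2.21% in MEF medium. The sum itself was 154.6 and 150.5 CPM per kilobase in CFAE+8+MSC, 143.5 and 139.9 in CFAE+6, 145.8 and 145 in CFAE+8, and 112.7 and 122.4 in MEF medium. Each compound library thus had a higher member total than either MEF library.

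Neither super elongation complex scaffold was called higher than in MEF medium in any compound medium. Aff1 (ENSMUSG00000029313, mm10 chr5:103692374-103855322, plus strand) had 168.4 and 163.7 CPM in CFAE+8+MSC, 127.2 and 129.9 CPM in CFAE+6, 161.8 and 167.9 CPM in CFAE+8, and 155.7 and 174.5 CPM in MEF medium. CFAE+6 stood apart as the low medium, and the other 3 overlapped. Against MEF medium Aff1 fell in CFAE+6 to 0.779 of its level (log2 -0.36 ± 0.059 SE, edgeR adjusted p = 4.81e-06). It was at 1.01-fold (95% interval 0.926 to 1.09) in CFAE+8+MSC and at 0.999-fold (0.92 to 1.08) in CFAE+8. Aff4 (ENSMUSG00000049470, mm10 chr11:53350833-53421830, plus strand) had 299.7 and 293.3 CPM in CFAE+8+MSC, 281.2 and 253.4 CPM in CFAE+6, 269.1 and 262.8 CPM in CFAE+8, and 295.5 and 322 CPM in MEF medium. Its CFAE+8+MSC and MEF libraries overlapped, and the CFAE+6 and CFAE+8 libraries lay below both. The fold of Aff4 against MEF medium was 0.96 in CFAE+8+MSC (95% interval 0.89 to 1.04, not called), 0.866 in CFAE+6 (edgeR adjusted p = 0.0013) and 0.861 in CFAE+8 (edgeR adjusted p = 0.000982). The call in CFAE+6 ended without CFAE+6 replicate 2 (adjusted p = 0.0546, range over alternatives 0.000137 to 0.758).

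Men1 rose in the compound media while its partner gene Kmt2a moved less and in different directions. Men1 (ENSMUSG00000024947, mm10 chr19:6334979-6340891, plus strand) had 91.11 and 89.71 CPM in CFAE+8+MSC, 99.34 and 91.67 CPM in CFAE+6, 87.67 and 83.37 CPM in CFAE+8, and 63.39 and 70.81 CPM in MEF medium. All compound libraries were above the MEF libraries. The fold was 1.35 in CFAE+8+MSC, 1.42 in CFAE+6 and 1.27 in CFAE+8 (edgeR adjusted p 4.5e-06, 2.6e-07 and 8.62e-05). Kmt2a (ENSMUSG00000002028, mm10 chr9:44803355-44881296, minus strand, with 2.27% of its exon length under an antisense gene) had 133.2 and 131.9 CPM in CFAE+8+MSC, 117.7 and 96.72 CPM in CFAE+6, 145.3 and 143.8 CPM in CFAE+8, and 125.2 and 133.1 CPM in MEF medium. CFAE+8 was highest and CFAE+6 lowest, while CFAE+8+MSC and MEF medium overlapped. Against MEF medium the fold in CFAE+6 was 0.83 (log2 -0.27 ± 0.069 SE, edgeR adjusted p = 0.00121), a call that ended without CFAE+6 replicate 2 (adjusted p = 0.106, range over alternatives 7.73e-06 to 0.351). In CFAE+8 the fold of 1.12 was called (edgeR adjusted p = 0.0382) but ended when any 1 of the 4 libraries was left out (adjusted p 0.055 to 0.236) and by DESeq2 (adjusted p = 0.11). In CFAE+8+MSC the fold was 1.03 (95% interval 0.932 to 1.13), not called.

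**Figure D3:**
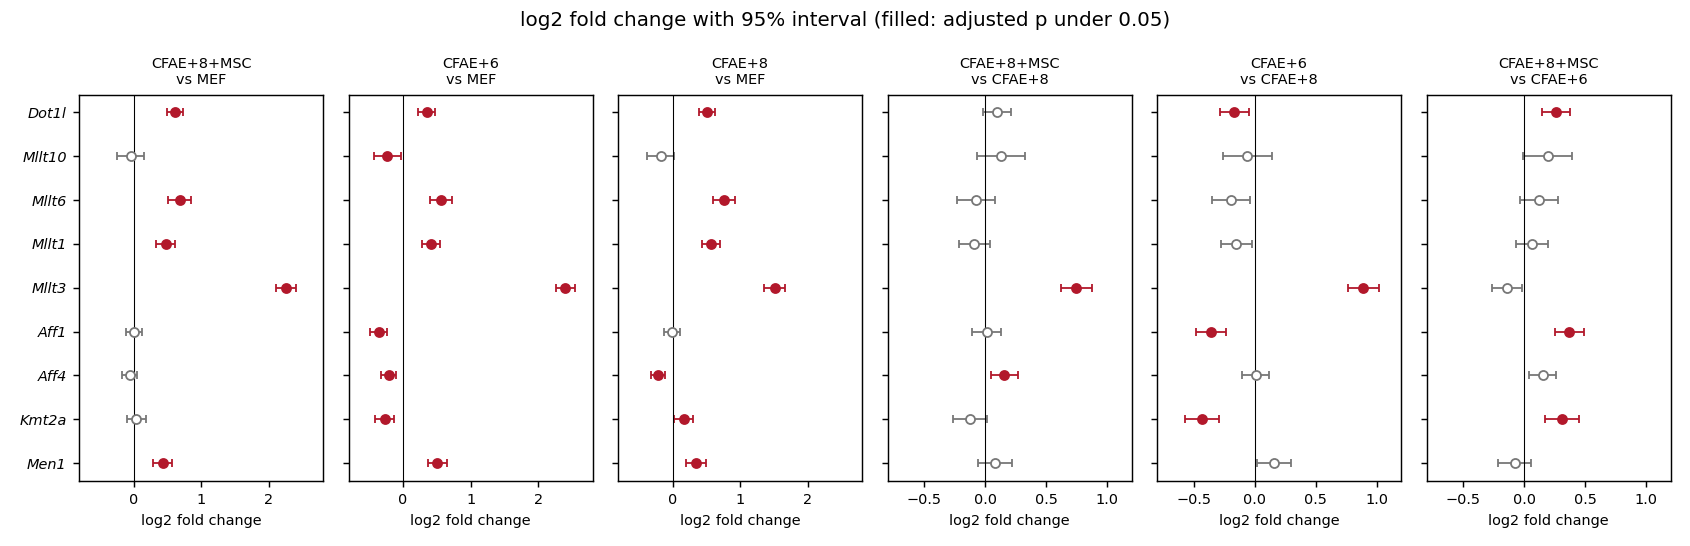
Log2 fold change of the 9 genes (rows) in the 6 comparisons (panels), with 95% intervals, filled where called. Mllt3 stands at 2.26, 2.40 and 1.51 against MEF medium in CFAE+8+MSC, CFAE+6 and CFAE+8, and every other member lies within 0.76 of 0 in all 6 panels.

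Adding the CDK8/19 inhibitor was examined by setting CFAE+8+MSC against CFAE+8, media that differ in MSC2530818 alone. Mllt3 and Aff4 were higher and the other 7 members were not called, where 29.3% of all genes were called, 15.6% higher and 13.8% lower. Mllt3 was 1.68-fold higher (log2 0.75 ± 0.062 SE, 95% interval of the fold 1.54 to 1.83, edgeR adjusted p = 6.93e-11), and 9.28% of tested genes had a larger rise. Aff4 was 1.11-fold higher (edgeR adjusted p = 0.0279). That call ended without CFAE+8 replicate 1 (0.0758), CFAE+8 replicate 2 (0.163) or CFAE+8+MSC replicate 1 (0.113), within a range over alternatives of 0.00745 to 1. For the other 7 genes the folds ran from 0.917 for Kmt2a (95% interval 0.834 to 1.01) to 1.09 for Mllt10 (0.954 to 1.26), and the Dot1l fold was 1.07 (0.986 to 1.16). Mllt6, at 0.947 (0.85 to 1.06), depended on its uneven replicates, with log2 -0.23 and a call without CFAE+8+MSC replicate 2 (edgeR adjusted p = 0.0487) and log2 0.07 without replicate 1. The median absolute log2 fold change of the members was 0.0948, against 0.219 over all tested genes.

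The TGF-beta receptor inhibitors E-616452 and A-83-01 form the single pair of media, CFAE+6 against CFAE+8, that differ only in which of those inhibitors they hold, at doses the labels do not give. Mllt3 was higher, Dot1l, Aff1 and Kmt2a were lower and 5 members were not called, where 26.6% of all genes were called, 14.3% higher and 12.3% lower. Mllt3 was 1.85-fold higher in CFAE+6 (log2 0.89 ± 0.061 SE, 95% interval 1.7 to 2.02, edgeR adjusted p = 2.2e-12), and 7.27% of tested genes had a larger rise. Kmt2a was at 0.741 of its CFAE+8 level (log2 -0.43 ± 0.068, 95% interval 0.673 to 0.817, edgeR adjusted p = 1.39e-05) and Aff1 at 0.78 (log2 -0.36 ± 0.059, 95% interval 0.717 to 0.848, edgeR adjusted p = 2.38e-05). Dot1l was at 0.89 (95% interval 0.821 to 0.965, edgeR adjusted p = 0.0278). Its call ended by DESeq2 (0.0943) and without CFAE+6 replicate 1 (0.103), CFAE+6 replicate 2 (0.0688) or CFAE+8 replicate 1 (0.305), in a range over alternatives of 0.0271 to 1. Among the 5 not called, the folds were 0.872 for Mllt6 (95% interval 0.782 to 0.972), 0.9 for Mllt1 (0.823 to 0.983), 0.959 for Mllt10 (0.834 to 1.1), 1 for Aff4 (0.931 to 1.08) and 1.12 for Men1 (1.01 to 1.23). Mllt6 was called with no low-count filter (adjusted p = 0.0453), with the replicate number as a block (0.0428) and with only those media in the fit (0.0277), and Men1 without CFAE+6 replicate 2 (adjusted p = 0.0492).

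CFAE+8+MSC and CFAE+6, the media with the highest Mllt3, differ in both MSC2530818 and the TGF-beta receptor inhibitor. Dot1l, Aff1 and Kmt2a were higher in CFAE+8+MSC and 6 members were not called, where 10.5% of all genes were called, 6.21% higher and 4.27% lower. Aff1 was 1.29-fold higher (edgeR adjusted p = 5.81e-05), Kmt2a 1.24-fold (0.00298) and Dot1l 1.2-fold (0.00209). The Kmt2a call ended without CFAE+6 replicate 2 (adjusted p = 0.167, range over alternatives 2.82e-05 to 0.848). Mllt3 was at 0.906 of its CFAE+6 level (95% interval 0.833 to 0.984, edgeR adjusted p = 0.128), not called. Aff4, at 1.11-fold, was also not called (edgeR adjusted p = 0.0753), and was called without CFAE+6 replicate 1 (0.0106).

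Levels can be ranked between genes only per length. In MEF medium the order in CPM per kilobase was Aff4 (22.95), Mllt1 (22.71), Men1 (19.4), Aff1 (17.45), Dot1l (12.01), Kmt2a (7.746), Mllt6 (6.729), Mllt10 (5.988) and Mllt3 (2.601). Aff4 and Mllt1 were closer to each other than their replicates. Mllt1 came first in each compound medium, at 31.49 in CFAE+8+MSC, 30.17 in CFAE+6 and 33.54 in CFAE+8, and Mllt10 came last. Mllt3, last in MEF medium, was the sixth in CFAE+8+MSC (12.43), the fifth in CFAE+6 (13.73) and the eighth in CFAE+8 (7.406). Its CFAE+6 libraries (13.67 to 13.79) overlapped those of Aff1 (13.45 to 13.74), so these ranks in CFAE+6 are not distinct. The Men1 value rests on a deposited gene length of 3458 bases, shorter than the 3835 bases of its GENCODE exons, while the other 8 lengths matched. Other ratios per kilobase moved too. Dot1l stood at 2.3 ± 0.0531 times Kmt2a in CFAE+8+MSC, 2.4 ± 0.347 in CFAE+6, 1.98 ± 0.0779 in CFAE+8 and 1.55 ± 0.0539 in MEF medium (SD, n = 2 each). Men1 stood at 3.29 ± 0.0123 times Kmt2a in CFAE+8+MSC, 4.32 ± 0.353 in CFAE+6, 2.85 ± 0.08 in CFAE+8 and 2.5 ± 0.0871 in MEF medium (SD, n = 2 each). Aff1 stood at 0.796 ± 0.00375 of Aff4 in CFAE+8+MSC, 0.686 ± 0.0608 in CFAE+6, 0.882 ± 0.0378 in CFAE+8 and 0.76 ± 0.0152 in MEF medium (SD, n = 2 each).

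Patterns over the 8 libraries were compared by the root mean square difference of log2(CPM + 0.5) after each gene's mean was removed, as a description. The closest pairs of members were Mllt10 with Aff4 (0.0527), Dot1l with Mllt1 (0.093) and Aff1 with Kmt2a (0.103). The measure is not scaled to a gene's range, so genes that vary little lie close together. Mllt10 and Aff4 had the narrowest ranges of group means, at log2 0.23 and 0.213. Mllt3, with the widest range at 2.38, was at least 0.726 from every other member, Mllt6 being the nearest. Among 10858 protein-coding genes averaging 5 CPM or more, those most like Dot1l were Ankrd10 (0.0461), Akap11 (0.0476), Plagl2 (0.0494), Ylpm1 (0.0494) and Fam53c (0.0548). Those most like Mllt3 were Fzd6, a Frizzled receptor (0.0913), Wnt4, a Wnt ligand (0.105), Tmem158 (0.11), Cblb, a ubiquitin ligase (0.118), and Has3, a hyaluronan synthase (0.127).

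**Figure D4:**
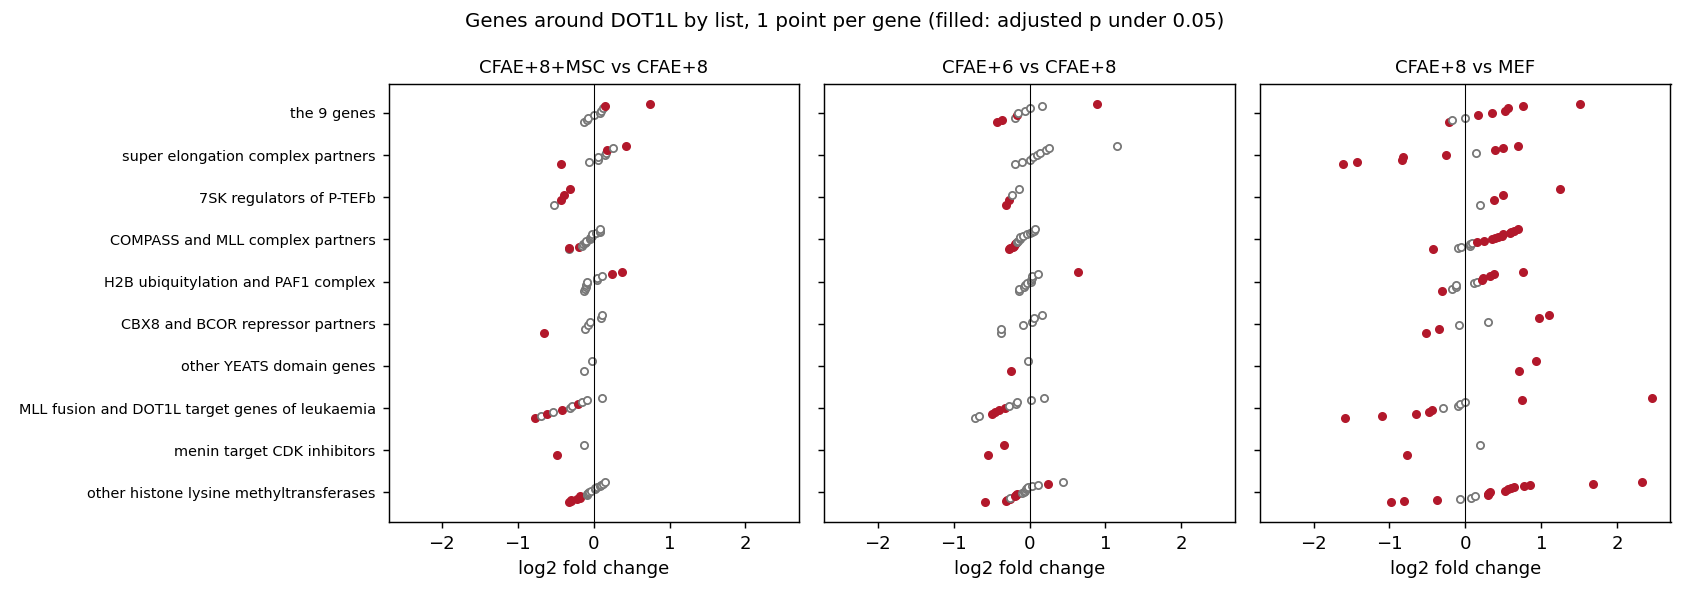
Log2 fold change (horizontal axes) of each tested gene by list (rows, the small vertical offsets only separate points) in CFAE+8+MSC against CFAE+8, CFAE+6 against CFAE+8 and CFAE+8 against MEF medium (panels), filled where the adjusted p is under 0.05. Against MEF medium 11 of 17 COMPASS partners were called to the right of 0, and in the panels against CFAE+8 most points lie near 0, with Mllt3 at 0.75 and 0.89 in the top row.

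The wider machinery was followed in lists of genes that work with the 9 members. The comparisons given share the CFAE+8 libraries, so counts in them are not separate evidence. Of 17 tested partners of KMT2A and its relatives in COMPASS complexes, 11 were higher and 1 was lower in CFAE+8 against MEF medium, where 30.8% of all genes were higher and 31.3% lower, with a median log2 fold change of 0.352 against about 0.01 over all genes. Kmt2b, the closest relative of Kmt2a, had 177.7 ± 2.07 CPM in CFAE+8 and 118.2 ± 4.59 CPM in MEF medium (SD, n = 2 each, edgeR adjusted p = 1.71e-10). Wdr82, a subunit of the SETD1 complexes, rose 1.51-fold (4.86e-09), and Paxip1, a subunit of the KMT2C and KMT2D complexes, rose 1.56-fold (1.37e-07). In CFAE+6 against CFAE+8, 6 of the 17 were lower and 11 not called, where 12.3% of all genes were lower. The calls of Kmt2b, Setd1b, Hcfc1, Psip1 and Ncoa6 each ended in some alternative other than the test against a 1.2-fold change. Kmt2d, an enhancer methyltransferase, was at 0.829 (edgeR adjusted p = 0.000478). Psip1, whose protein LEDGF tethers menin and KMT2A to chromatin, fell to 0.797 of its CFAE+8 level in CFAE+8+MSC (edgeR adjusted p = 0.000349) and to 0.841 in CFAE+6 (0.00516, 0.056 without CFAE+6 replicate 2), with 9.5% of its exons overlapped by another gene. Wdr82 was at 0.879 in CFAE+8+MSC against CFAE+8 (0.0281), where 13.8% of all genes were lower. Its call ended by DESeq2 (0.0979) and without CFAE+8 replicate 2 (0.303), CFAE+8+MSC replicate 1 (0.0532) or CFAE+8+MSC replicate 2 (0.163).

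Of 9 tested partners of AFF1 and AFF4 in the super elongation complex, 3 were higher, 5 lower and 1 not called in CFAE+8 against MEF medium, where 30.8% of all genes were higher and 31.3% lower. The lower genes include Eaf2, at only 0.4678 CPM in CFAE+8 and 1.264 CPM in MEF medium. The Eaf2 call ended in 7 alternatives, 6 of them apart from the test against a 1.2-fold change. Aff3, another member of the AFF family, had 9.317 ± 0.223 CPM in CFAE+8 and 28.35 ± 0.713 CPM in MEF medium (SD, n = 2 each, edgeR adjusted p = 3.76e-11). Ell2, an elongation factor, was at 0.566 of its MEF level (1.35e-08), and Eaf1, which binds ELL proteins, was 1.61-fold higher (6.32e-11). With MSC2530818, Ell2 was 1.34-fold higher (edgeR adjusted p = 0.00132) and Ell was at 0.743 (0.000125). In CFAE+6 against CFAE+8 they stood at 1.19-fold (0.0593) and 0.878-fold (0.0792), not called. Of 4 genes for the 7SK particle, which holds P-TEFb inactive, 3 were higher in CFAE+8 against MEF medium (30.8% of all genes), 3 were lower in CFAE+8+MSC against CFAE+8 (13.8% of all genes), and 2 were lower in CFAE+6 against CFAE+8 (12.3% of all genes). The Larp7 call in CFAE+8+MSC against CFAE+8 ended in 4 alternatives, 3 of them apart from the test against a 1.2-fold change. Hexim1, the P-TEFb inhibitor, had 62.77 ± 0.393 CPM in CFAE+8+MSC, 68.42 ± 1.65 CPM in CFAE+6, 84.67 ± 5.08 CPM in CFAE+8 and 65.41 ± 1.04 CPM in MEF medium (SD, n = 2 each), and its call in CFAE+6 against CFAE+8 (edgeR adjusted p = 0.00101) ended without CFAE+8 replicate 1 (0.0514). Mepce, which caps 7SK RNA, was 1.4-fold higher in CFAE+8 than in MEF medium (3.23e-06) and fell to 0.765 of its CFAE+8 level with MSC2530818 (0.000251) and to 0.833 in CFAE+6 (0.00972). The CFAE+6 call of Mepce ended by DESeq2 (0.0647) and without CFAE+6 replicate 1 (0.109), CFAE+8 replicate 1 (0.0785) or CFAE+8 replicate 2 (0.0556). Hexim2 was 2.37-fold higher in CFAE+8 at a low level, 5.744 ± 0.0863 CPM against 2.431 ± 0.459 CPM in MEF medium (SD, n = 2 each, edgeR adjusted p = 0.000208).

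Monoubiquitylation of histone H2B, which stimulates DOT1L, was represented by 11 genes with the PAF1 complex, of which 5 were higher and 1 lower in CFAE+8 against MEF medium, where 30.8% of all genes were higher and 31.3% lower. Rtf1 and Leo1, PAF1 complex subunits, rose 1.69-fold (1.5e-10) and 1.3-fold (0.000155), and Ube2b, a ubiquitin-conjugating enzyme, fell to 0.807 (0.000169), all by edgeR. Wdr61 was higher than in CFAE+8 in both CFAE+8+MSC (1.29-fold, 0.000199) and CFAE+6 (1.56-fold, 3.07e-08), with 33.9% of its exon length overlapping another gene. Cdc73 was 1.18-fold higher in CFAE+8+MSC (0.0321), a call that ended by DESeq2 (0.109) and without CFAE+8 replicate 1 (0.354), CFAE+8+MSC replicate 1 (0.0785) or CFAE+8+MSC replicate 2 (0.112). Rtf1, at 0.906 in CFAE+6 against CFAE+8, was not called (0.12). Of 6 genes for CBX8 and BCOR repressor complexes, which AF9 and ENL also bind, 2 were higher and 2 lower in CFAE+8 against MEF medium, close to the 30.8% higher and 31.3% lower among all genes. Rnf2, a ubiquitin ligase for histone H2A, rose 1.95-fold (4.55e-13), Pcgf1 rose 2.15-fold (3.6e-06) and Bcor fell to 0.789 (0.000545). Pcgf1 fell to 0.638 with MSC2530818 (0.00366, 0.0678 without CFAE+8+MSC replicate 1), while Bcorl1, at 1.08-fold there, and Pcgf1 and Cbx8, at 0.772 and 0.769 in CFAE+6 against CFAE+8, were not called (0.405, 0.0911 and 0.122). The other YEATS genes, Yeats2 and Yeats4, rose 1.91-fold and 1.63-fold in CFAE+8 against MEF medium (1.55e-14 and 7.65e-08). Yeats4 was lower in CFAE+6 than in CFAE+8 (0.847, 0.0371), but that call ended when any 1 of the 4 libraries was left out (0.0781 to 0.179), with no low-count filter (0.0629) and by DESeq2 (0.171). It was not called with MSC2530818 (0.918, 0.302), and Yeats2 was not called in either (0.985 and 0.986, adjusted p 0.812 and 0.826).

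Of 11 genes known as targets of KMT2A fusions and DOT1L in leukaemia, 2 were higher and 5 lower in CFAE+8 against MEF medium, where 30.8% of all genes were higher and 31.3% lower. The list's median log2 fold change was -0.292. The higher genes include Myb, at only 1.787 CPM in CFAE+8 and 0.3223 CPM in MEF medium. The call of Hoxa10, a lower gene, ended in 2 alternatives other than the test against a 1.2-fold change. Hoxa7, a homeobox gene, had 12.16 ± 2.47 CPM in CFAE+8 and 36.39 ± 0.551 CPM in MEF medium (SD, n = 2 each, edgeR adjusted p = 2.61e-11), and 20.4% of its exon length overlaps Hoxaas3, so its counts are uncertain. Jmjd1c, a demethylase family gene, fell to 0.739 (1.19e-05), and Cdk6, a cell cycle kinase, rose 1.68-fold (2.78e-10). In CFAE+8+MSC against CFAE+8, 4 of the 11 were lower (13.8% of all genes), among them Hoxa5 at 0.587 (0.000168) and Meis1 at 0.749 (0.000994), the second with 18.3% of its exons overlapped. The Hoxa7 and Cdk6 calls there each ended in some alternative other than the test against a 1.2-fold change. In CFAE+6 against CFAE+8, 4 were lower (12.3% of all genes), among them Jmjd1c at 0.711 (2.49e-05) and Cdk6 at 0.759 (5.67e-05). The Hoxa5 and Pbx3 calls in CFAE+6 against CFAE+8 also ended in such an alternative. The CDK inhibitor genes Cdkn1b and Cdkn2c are known menin targets. Cdkn1b was at 0.588 in CFAE+8 against MEF medium (1.64e-07) and at 0.79 in CFAE+6 against CFAE+8 (0.0241), with 0.917 in CFAE+8+MSC against CFAE+8 not called (0.432). Its call against CFAE+8 ended by DESeq2 (0.116) and without CFAE+6 replicate 1 (0.171), CFAE+8 replicate 1 (0.0593) or CFAE+8 replicate 2 (0.159). Cdkn2c was not called in CFAE+8 against MEF medium (1.14-fold, 0.228) and was at 0.718 in CFAE+8+MSC (0.00858) and 0.685 in CFAE+6 (0.00334), each against CFAE+8. The first of these calls ended by DESeq2 (0.0573) and without CFAE+8 replicate 2 (0.0878), and the second without CFAE+6 replicate 2 (0.092).

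Among 18 other histone lysine methyltransferase genes, 12 were higher and 3 lower in CFAE+8 against MEF medium, where 30.8% of all genes were higher and 31.3% lower. Suv39h1, a heterochromatin methyltransferase, had 130.1 ± 4.88 CPM in CFAE+8 and 26.08 ± 0.481 CPM in MEF medium (SD, n = 2 each, edgeR adjusted p = 5.11e-22), with 14.6% of its exons overlapped by another gene. Ezh2, the Polycomb methyltransferase, rose 3.2-fold (8.55e-17), and Setd7 fell to 0.505 (2.6e-13). In CFAE+8+MSC against CFAE+8, 6 of 18 were lower (13.8% of all genes), among them Ehmt2 at 0.86 (0.00115) and Setd7 at 0.815 (0.00321). The Setd2, Nsd1, Kmt5b and Smyd2 calls there each ended in some alternative other than the test against a 1.2-fold change. The Setd7 call ended without CFAE+8 replicate 2 (0.0655) or CFAE+8+MSC replicate 2 (0.0705). In CFAE+6 against CFAE+8, 7 were lower and 1 higher (12.3% and 14.3% of all genes), among them Setd7 at 0.666 (7.05e-07) and Setd2, the elongation-linked methyltransferase, at 0.809 (0.00068, 0.0614 without CFAE+8 replicate 2), where Dot1l stood at 0.89. The Nsd1, Nsd3, Ehmt2 and Kmt5b calls in CFAE+6 against CFAE+8 also ended in some alternative other than the test against a 1.2-fold change. The list's median log2 fold change was -0.064 in CFAE+8+MSC and -0.0837 in CFAE+6, each against CFAE+8.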

How the data were processed

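The authors deposited raw counts per gene for 8 libraries in 1 table with gene positions and lengths. Per the submitters' processing notes, featureCounts of Subread, DESeq2 and the mm10 build were used, with no versions, while the labels and headers name no aligner and no strand setting. Per the labels' protocols the NEBNext Ultra kit was used, which does not mark strand. How reads over 2 genes were counted is not stated, so the counts of genes with overlapped exons are uncertain. The overlap is given beside only some of these genes. Named genes without it include Smyd2 (30% of exon length), Kmt5b (6.28%), Has3 (5.52%), Cdc73 (3.86%) and Rnf2 (3.83%).

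The 28024 genes with counts were filtered with filterByExpr to 15470, which hold 99.85% of all counts. TMM scaling and edgeR 4.0.16 quasi-likelihood tests (R 4.3.3, limma 3.58.1) were fitted with 1 mean per medium over all 8 libraries, and p-values were adjusted by Benjamini-Hochberg over all tested genes. Levels are TMM-scaled CPM. Standard errors are the log2 fold change divided by the square root of F, and 95% intervals use the t distribution. The fit was tested on simulated data. Totals of 10958430 to 11913143 counts limit genes of a few CPM most. Replicates were not merged, since each pair differed by more than sampling noise.

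Alternatives were DESeq2 size factors, upper-quartile scaling, no filter, a stricter filter, DESeq2 1.42.0, a test against a 1.2-fold change, only the media compared, a replicate block and leaving out each library. All 9 members are named. From each partner list up to 3 genes with the smallest adjusted p in CFAE+8 against MEF medium and up to 2 in each addition to CFAE+8 are named. List genes whose call ended in an alternative (17 of 58, 19 of 22 and 21 of 24) are counted here and not all named, and 1 list gene is not reported here. The members and lists were chosen with earlier results of these data known. Gene models were compared with GENCODE M21 and promoters come from RefSeq on GRCm38.p6.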

Additional observations from a re-analysis of the deposited data

How the results depend on the processing

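Of 54 calls on the 9 genes over 6 comparisons, 30 were called, and 17 of those kept their side of the threshold under every alternative (23 when the test against a 1.2-fold change is set aside). Of the 24 not called, 20 stayed so. The values that matter stand beside the results, and the other member calls kept their direction except for 18 log2 fold changes of genes that were not called, for which the cause was not tested. For Aff1 in CFAE+8 against MEF medium the value was 0.03714 with upper-quartile scaling, 0.001442 with no low-count filter, 0.002871 with a stricter filter, 0.008174 with only those media, and ran from -0.07862 to 0.07512 when each library was left out in turn. Leaving out libraries gave log2 fold changes in CFAE+8+MSC against MEF medium of -0.1143 to 0.03553 for Mllt10, -0.06518 to 0.08904 for Aff1 and -0.1125 to 0.0009495 for Aff4. In CFAE+8+MSC against CFAE+8 they ran from -0.2291 to 0.06802 for Mllt6 and from -0.01294 to 0.04071 for Aff1. In CFAE+6 against CFAE+8 they ran from -0.06638 to 0.07842 for Aff4. In CFAE+8+MSC against CFAE+6 they ran from -0.03365 to 0.2637 for Mllt6 and from -0.009606 to 0.1339 for Mllt1.

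The test against a 1.2-fold change by edgeR kept 4 of the 7 members called in CFAE+8 against MEF medium. In CFAE+6 against MEF medium it kept 5 of 9, and in CFAE+8+MSC against MEF medium 5 of 5. Over all genes it called 7246 in place of 9597 in CFAE+8 against MEF medium. The all-gene calls were 7370 in place of 9766 in CFAE+6 and 7487 in place of 9911 in CFAE+8+MSC, each against MEF medium. Of members, it kept 1 of 2 (Mllt3) in CFAE+8+MSC against CFAE+8 and 2 of 4 (Mllt3 and Kmt2a) in CFAE+6 against CFAE+8. In CFAE+8+MSC against CFAE+6 it kept 0 of 3, where 1 member had an unadjusted p under 0.05 in that test and DESeq2 called 3. The same test called 2025 genes in place of 4538 in CFAE+8+MSC against CFAE+8, 1654 in place of 4116 in CFAE+6 against CFAE+8 and 279 in place of 1621 in CFAE+8+MSC against CFAE+6. In the last comparison DESeq2 called 997. Leaving out 1 library gave 1 to 3 members in CFAE+8+MSC against CFAE+8 (1 without CFAE+8 replicate 1, CFAE+8 replicate 2 or CFAE+8+MSC replicate 1), 2720 to 3373 genes in CFAE+6 against CFAE+8 (2720 without CFAE+8 replicate 2) and 947 to 1451 genes in CFAE+8+MSC against CFAE+6 (947 without CFAE+6 replicate 2 and 990 without CFAE+8+MSC replicate 1). A lone library is then assumed to vary like the other groups. In each of these fits fewer of all genes were called than with every library kept. A lower member count there is therefore not particular to the members.

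Replicate numbers did not pair the samples, with correlations of deviations from -0.0165 to 0.0575. With the replicate number as a block, 9584, 9906, 9765, 4531, 4124 and 1679 genes were called in CFAE+8, CFAE+8+MSC and CFAE+6 against MEF medium, CFAE+8+MSC against CFAE+8, CFAE+6 against CFAE+8 and CFAE+8+MSC against CFAE+6, with 7, 5, 9, 2, 5 and 3 members, and Mllt6 in CFAE+6 against CFAE+8 was the only member call it changed. With 2 libraries per medium, changes in members of about 30 CPM such as Mllt10 have the widest intervals.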
